A study of Arabidopsis thaliana with 12 samples.

Results

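In whole Arabidopsis roots moved to sulfur-deficient medium, a group of 20 probe sets kept a signal near that of the 0 h roots at 3 h and 12 h and stood lower at 48 h and 72 h. They were chosen from 22746 probe sets that are no array controls. The rule worked on L, the log2 of the MAS5 signal plus 16, averaged over the 2 arrays of a time. It asked for a mean signal of 100 or more at some time, a 72 h value minus 0 h of -0.8 or lower, a 48 h value minus 0 h of -0.4 or lower, differences within 0.3 at 3 h and within 0.4 at 12 h, and both 72 h arrays below both 0 h arrays. The rule also set aside APS4, AT2G16005, AT3G07720 and MSRB6, but 0 of the probe sets that met the other criteria were named as one of these genes. Because measured signals at 0, 3, 12, 48 and 72 h chose the members, their values at those times are a description, and tests were made at 24 h, the time the rule did not use. These tests are independent of the rule on their 24 h side alone: the rule placed 0 h above 72 h and kept 3 h and 12 h near 0 h, so the selection favours lower values at 24 h than at any of these times.

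The plants were Arabidopsis thaliana, ecotype Columbia, with no transgene or mutation named. After 5 days of growth on standard medium, seedlings were placed on sulfur-deficient medium and harvested 3, 12, 24, 48 or 72 h later. Roots of seedlings given fresh standard medium served as the 0 h group. There were 12 one-colour arrays, 2 per time. Roots kept on standard medium for the same hours were not analysed here, so sulfur deficiency, transfer, seedling age and hour of harvest cannot be told apart. Whether the 2 replicates of a time were separate cultures is not stated in the labels, and the p-values reflect the spread between arrays alone, which may be technical.

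Sulfate taken up by roots is activated, reduced and built into cysteine, and from there it enters methionine, glutathione and, in this plant family, glucosinolates. When sulfate runs short, roots raise genes of uptake and sulfur recycling and slow the use of sulfur in secondary compounds, and with longer shortage growth and defence change as well. Of 149 genes in 12 lists on sulfur, iron, nitrate and cell types, 22 had a probe set that could be named, and 0 of these 22 were members. Only 20 of 22746 probe sets were members, and 10 of these were paired with 1 gene, so nothing is read from this 0.

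Of the 20 probe sets, 10 were paired with 1 gene, 1 with several genes and 9 were unlisted in the platform table and are given by their identifiers. The named genes were WRKY53, a transcription factor known from leaf senescence and defence, and AT2G38870, a small inhibitor of the PR-6 family of proteinase inhibitors. SAH7 belongs to a family related to the pollen allergen Ole e 1, and AT5G38910 to the germin-like proteins, both typically found outside the cell. AT1G14240 is of the nucleoside phosphatase family that includes apyrases, and AT1G66800 is a reductase-type NAD(P)-binding protein. AT5G02170 belongs to a family of amino acid transporters, and TAAC is the thylakoid ATP/ADP carrier. AT3G56730 and AT1G13670 completed the set. Each of these 10 genes had a single named probe set.

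All 20 probe sets stood lower at 24 h than at 0 h. The L differences ran from -1.48 to -0.37 with a median of -0.50, against -0.0045 over the 14682 probe sets tested. The rule placed 0 h above 72 h in the members, which favours such differences. How much of them the selection gave was not tested. In whole roots, fewer cells of a type and less RNA per cell cannot be told apart. The median difference from 0 h was 0.0044 at 3 h, -0.25 at 12 h, -0.69 at 48 h and -0.98 at 72 h. The 24 h difference was 31.5% to 85.7% of the 72 h difference, with a median of 52.3%. Both differences use the 0 h arrays and the rule set the limit at 72 h, so nothing is read from this share. In 13 of 20 the mean L stepped down at each time from 12 h to 72 h. The lowest time was 72 h in 19 of 20, and 48 h for AT2G38870. The rule kept 12 h near 0 h and asked for low values at 48 h and 72 h, so nothing is read from either count. The same counts were not made over all probe sets.

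**Figure D1:**
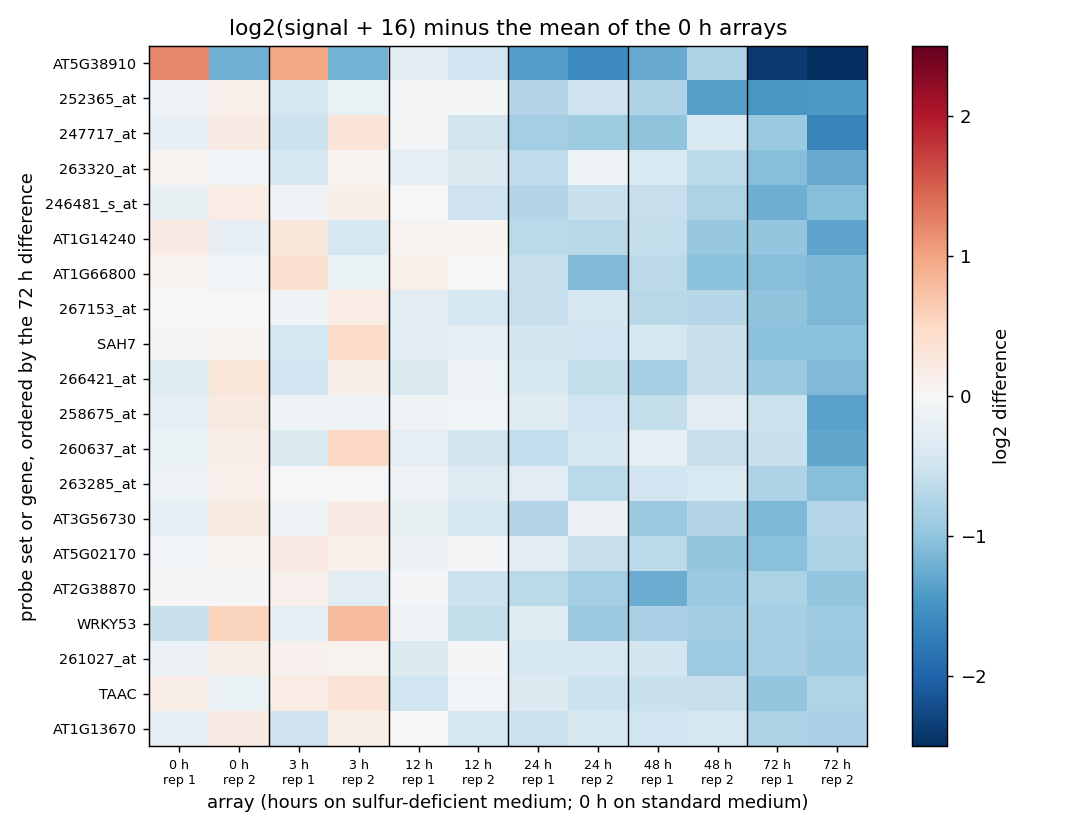
Log2(signal + 16) of the 20 probe sets on each of the 12 arrays, minus the mean of the 2 arrays at 0 h, with red for higher and blue for lower. All 72 h arrays are blue, while a few arrays of 24 h and 48 h, such as 24 h replicate 2 of AT3G56730, are close to white, and the 0 h and 3 h arrays of AT5G38910 and WRKY53 differ widely between replicates.

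At 24 h, both arrays lay below both 0 h arrays in 18 of 20 probe sets, which held for 24.1% of all probe sets tested. AT3G56730 and WRKY53 were the exceptions. The 24 h arrays were also set against those of 3 h and 12 h, which the rule kept near 0 h. Both 24 h arrays lay below all 4 of these in 11 of 20 probe sets, against 9.34% of all probe sets tested. All probe sets were not selected in this way, and how much of either excess the selection gave was not tested.

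In the limma fit with Benjamini-Hochberg adjustment over 14682 probe sets, 4 of 20 fell from 0 h to 24 h past an adjusted p of 0.05, where 2.53% of all probe sets fell and 2.47% rose. The 0 h side of this comparison was selected, and without 0 h replicate 1 or without 0 h replicate 2 the count was 1 of 20. They were AT1G66800, AT2G38870 and the probe sets 246481_s_at and 267153_at. Against the mean of 3 h and 12 h, 1 of 20 fell, AT1G66800, where 0.742% of all probe sets fell and 1.11% rose. The other members had adjusted p-values from 0.104 to 0.430 against 0 h and all 20 had log2 differences below 0 in both comparisons. The median over the 20 was -0.42 against 3 h and 12 h, and 0.011 over all probe sets. Both comparisons use the same 24 h arrays. The selection favours values below 0, and its part was not tested. Each of the 4 calls rested on few arrays, and none held when 24 h replicate 2 was left out. With no filter on dim probe sets or with no trend in the prior variance, 0 of 20 passed by limma. In these settings 12 and 11 of 20 had an unadjusted p under 0.05. The share of all probe sets under it is not given, so nothing is read from these 2 counts.

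**Figure D2:**
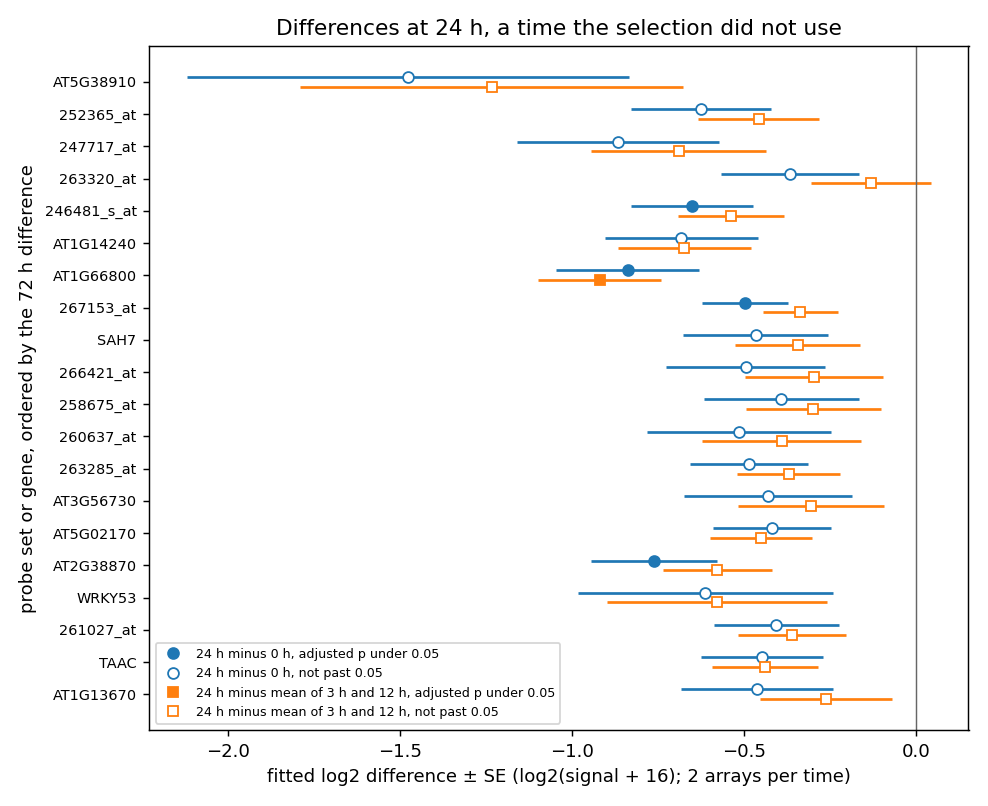
Fitted log2 difference at 24 h with its standard error for each of the 20 probe sets, against 0 h (blue circles) and against the mean of 3 h and 12 h (orange squares), with filled symbols for an adjusted p under 0.05. All 40 values lie below 0, and AT1G66800 is filled in both comparisons. Both comparisons use the same 24 h arrays, and the selection favours values below 0.

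Among the enzymes, AT1G66800 was the gene called in both comparisons. Its signal was 564 and 508 at 0 h, 701 and 472 at 3 h, 587 and 532 at 12 h, 355 and 240.2 at 24 h, 334 and 256 at 48 h, and 248 and 238 at 72 h. All 6 arrays up to 12 h lay above all 6 arrays from 24 h on, and the mean L at 24 h and at 48 h differed by 0.0034. It fell by 0.84 ± 0.21 on the log2 scale from 0 h to 24 h (SE, adjusted p = 0.0318 with limma) and by 0.92 ± 0.18 from the mean of 3 h and 12 h (SE, adjusted p = 0.0202). Over the alternative settings and left-out arrays the adjusted p ran from 0.00997 to 0.295 for the first comparison and from 0.0058 to 0.453 for the second, and without 24 h replicate 2 the differences were -0.57 and -0.65. The first call was also lost without either 0 h array, and the second without either 12 h array.

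AT1G14240, the apyrase-family gene, had signals of 393 and 296 at 0 h, 417 and 247 at 3 h, 360.1 and 354 at 12 h, 206 and 206 at 24 h, 219 and 168 at 48 h, and 168 and 128 at 72 h. Its 2 arrays at 24 h were nearly equal and lay below every earlier array. The difference from 0 h to 24 h was -0.68 ± 0.22 (SE, adjusted p = 0.106 with limma), and it passed with the replicate number as a block (adjusted p = 0.0465) or without either 3 h array, over a range of 0.0364 to 0.344. Its 72 h difference in L was -1.14, which ran from -1.33 to -0.94 when single arrays of 0 h or 72 h were left out.

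AT2G38870, the proteinase inhibitor, had signals from 1504 to 3892 over the 12 arrays. It measured 3684 and 3509.6 at 0 h, 3892 and 2951 at 3 h, 3519 and 2463 at 12 h, 2252 and 1978 at 24 h, 1504 and 1889 at 48 h, and 2062 and 1808 at 72 h. It was the 1 member whose mean at 72 h lay above that at 48 h, and the arrays of these times overlapped. It fell by 0.76 ± 0.18 on the log2 scale from 0 h to 24 h (SE, adjusted p = 0.0281 with limma), and the adjusted p ran from 0.0160 to 0.196 over the alternatives, and leaving out either array of 0 h or of 24 h ended the call. Against 3 h and 12 h it stood at -0.58 ± 0.16 (SE, adjusted p = 0.0860).

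WRKY53 was dim and uneven. Its signals were 45.8 and 117 at 0 h, 61.1 and 140.3 at 3 h, 69.0 and 43.9 at 12 h, 57.1 and 31.9 at 24 h, 35.7 and 33.7 at 48 h, and 34.6 and 32.1 at 72 h. Both arrays lay below their 40th percentile at 48 h and at 72 h, so the size of its difference there is uncertain. The 72 h difference of -0.88 became -0.33 on leaving out 0 h replicate 2, and -1.43 on leaving out 0 h replicate 1. At 24 h it stood at -0.61 ± 0.37 (SE, adjusted p = 0.430 with limma).

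Among genes of the wall and apoplast, AT5G38910 had the lowest 72 h difference, with L at -2.47. Its signal was 301 and 44.4 at 0 h, 254 and 45.0 at 3 h, 99.5 and 81.6 at 12 h, 37.4 and 30.1 at 24 h, 42.1 and 64.9 at 48 h, and 10.5 and 7.39 at 72 h. The replicates at 0 h and 3 h differed more than 5-fold, and the 48 h arrays overlapped those of 0 h. In the other 19 of 20 members they did not, against 21.4% of all probe sets tested, a contrast that the rule used. Both arrays lay below their 40th percentile at 24 h and at 72 h. On leaving out replicate 1 or replicate 2 of 0 h, the 72 h difference became -1.28 or -3.67, and the 24 h difference of -1.48 ± 0.64 (SE, adjusted p = 0.240 with limma) became -0.28 or -2.67, the last past the threshold (adjusted p = 0.0277, over a range of 0.0277 to 0.851).

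SAH7 gave 669 and 708 at 0 h, 503 and 951 at 3 h, 562 and 588 at 12 h, 498 and 489 at 24 h, 504 and 464 at 48 h, and 332 and 331 at 72 h. The signal at 24 h and 48 h was nearly level, and the lower step came between 48 h and 72 h, whose arrays did not overlap. Its 72 h difference of -1.02 stayed between -1.06 and -0.98 when single arrays of 0 h or 72 h were left out. At 24 h it stood at -0.47 ± 0.21 (SE, adjusted p = 0.264 with limma), and it passed when either 3 h array was left out (adjusted p from 0.0420 to 0.534 over the alternatives).

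**Figure D3:**
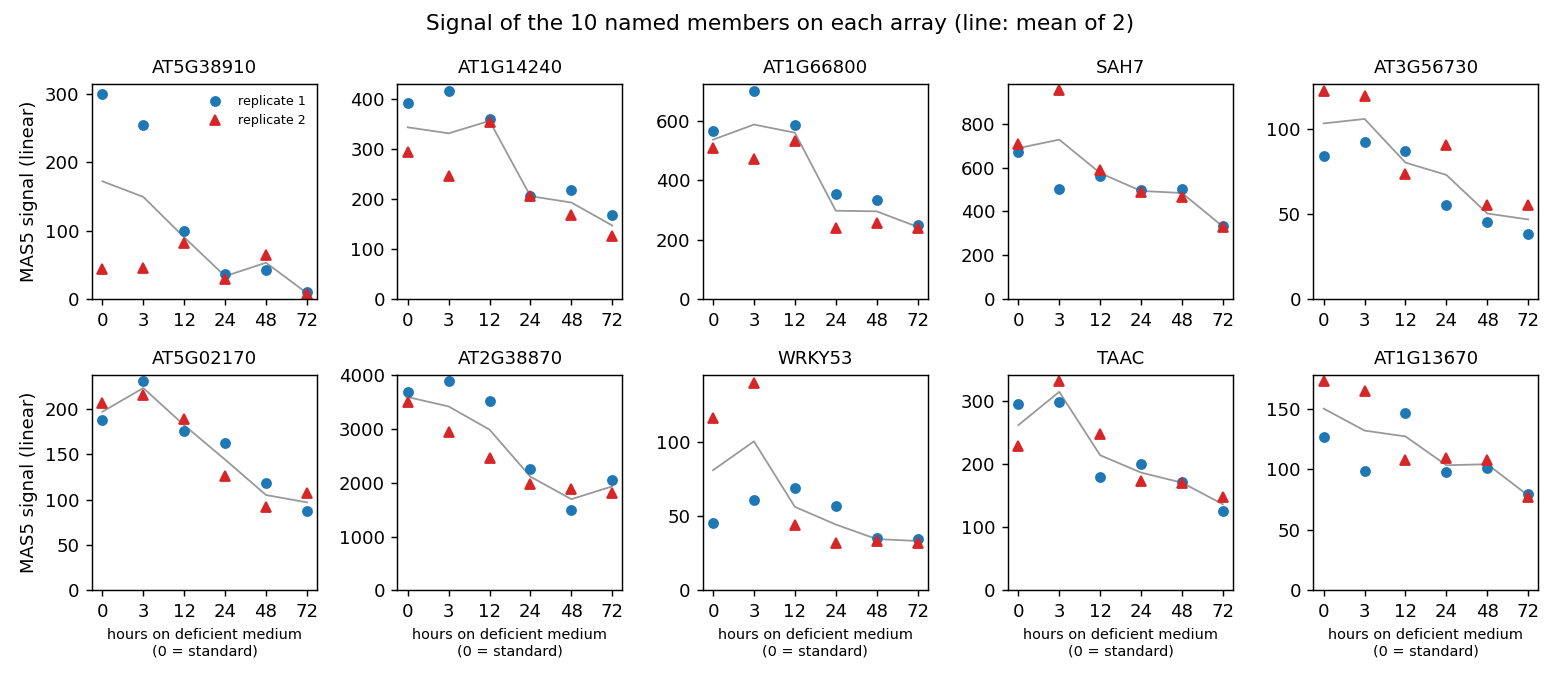
MAS5 signal on a linear axis for the 10 named genes on each array (circle, replicate 1; triangle, replicate 2; line, mean of 2) at 0, 3, 12, 24, 48 and 72 h, spaced evenly. SAH7 ends at 332 and 331, and AT5G38910 starts at 301 and 44.4.

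Among the transport genes, TAAC had signals of 295 and 229 at 0 h, 298 and 332 at 3 h, 181 and 248 at 12 h, 199.9 and 174 at 24 h, 172 and 169.9 at 48 h, and 125 and 148 at 72 h. Its 12 h arrays overlapped those of 0 h and of 24 h, and the 72 h difference of -0.86 was -0.69 without 0 h replicate 1. As TAAC acts in plastids, markers of green tissue are given beside it: 2 of the 6 listed genes had a named probe set, RCA and LHCB4.1. Their summed signal was 596 to 612 at 0 h, 421 to 483 at 3 h and 331 to 333 at 12 h. It was 515 to 708 at 24 h, 513 to 726 at 48 h and 468.5 to 651 at 72 h. The 72 h log2 differences were -0.15 for RCA and -0.069 for LHCB4.1, with adjusted p-values of 0.744 and 0.893. Whether shoot tissue took part in the values of TAAC was not tested.

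AT5G02170, of the amino acid transporter family, measured 187 and 206 at 0 h, 230.4 and 215 at 3 h, 175 and 189 at 12 h, 162 and 126 at 24 h, 118 and 92.3 at 48 h, and 87.0 and 107 at 72 h. The groups from 24 h on lay below all earlier arrays, and nearly all of the 72 h difference, 89.4%, was present at 48 h. At 24 h the difference from 0 h was -0.42 ± 0.17 (SE, adjusted p = 0.209 with limma).

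AT3G56730 gave 84.2 and 123 at 0 h, 92.4 and 119.6 at 3 h, 87.2 and 73.5 at 12 h, 55.4 and 90.8 at 24 h, 45.6 and 55.3 at 48 h, and 38.2 and 55.7 at 72 h. The 24 h arrays overlapped those of 0 h and 12 h and lay below those of 3 h, and the 48 h arrays lay below all of these. AT1G13670 had 127 and 173 at 0 h, 99.1 and 165 at 3 h, 147 and 108 at 12 h, 97.7 and 109 at 24 h, 101 and 107 at 48 h, and 79.6 and 77.2 at 72 h. It lay nearest to the threshold of the rule, with a 72 h difference of -0.80, followed by TAAC at -0.86 and 261027_at at -0.87. Just outside this 72 h threshold, meeting every other criterion, were AT1G70810 at -0.79, the expansin-like gene EXLB1 at -0.78 and 260545_at at -0.72. The other limits left out more: 30 probe sets failed the 3 h criterion alone, 42 the 12 h criterion and 13 the 48 h criterion.

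Next come the 2 unnamed probe sets called at 24 h, 267153_at, which was unlisted, and 246481_s_at. The signal of 267153_at was 11679 and 11894 at 0 h, 10971 and 13477 at 3 h, 9636 and 8678 at 12 h, 7854 and 8862 at 24 h, 7276 and 7176 at 48 h, and 5841 and 5438 at 72 h. The arrays of 24, 48 and 72 h did not overlap one another and stepped down in that order. It fell by 0.50 ± 0.13 on the log2 scale from 0 h to 24 h (SE, adjusted p = 0.0352 with limma), over a range of 0.0189 to 0.307, and leaving out any single array of 0, 24, 48 or 72 h ended the call.

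The probe set 246481_s_at, paired with several genes, had 8472 and 10978 at 0 h, 9118 and 10625 at 3 h, 9751 and 6689.5 at 12 h, 5774 and 6508 at 24 h, 6428 and 5538 at 48 h, and 4132 and 4601 at 72 h. Every array from 24 h on lay below every earlier one. It fell by 0.65 ± 0.18 from 0 h to 24 h on the log2 scale (SE, adjusted p = 0.0495 with limma), over a range of 0.0300 to 0.319, and the call was lost without 0 h replicate 2, without any 1 array of 24, 48 or 72 h, with no offset and with the replicate number as a block (adjusted p = 0.0660).

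Of the unlisted probe sets, 252365_at gave 142 and 173 at 0 h, 113 and 138 at 3 h, 151 and 152 at 12 h, 87.6 and 105 at 24 h, 84.8 and 51.2 at 48 h, and 47.2 and 48.1 at 72 h, with a 72 h difference in L of -1.44. For 247717_at the signals were 675 and 899, 534 and 981, 755 and 564, 426 and 414, 380.0 and 597, and 401 and 236 in order of time, with -1.30 at 72 h. In both, the 24 h arrays lay below every earlier array, and neither passed at 24 h (adjusted p = 0.104 and 0.121 with limma against 0 h). In 247717_at the 48 h and 72 h arrays overlapped, and its 24 h difference passed with only the groups compared in the fit (adjusted p = 0.0323, over a range of 0.0323 to 0.402).

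A smaller 24 h difference was seen in 263320_at, with 257 and 234 at 0 h, 183 and 254 at 3 h, 204 and 189 at 12 h, 152 and 228 at 24 h, 185 and 148 at 48 h, and 108 and 92.9 at 72 h. Its 24 h difference of -0.37 was the smallest of the 20 and covered 31.5% of the 72 h difference of -1.17. The probe set 261027_at had 169 and 209, 205 and 202, 144 and 184, 139 and 137, 132 and 93.1, and 99.3 and 91.8 in the same order of times. Its arrays from 24 h on all lay below the earlier ones.

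The remaining unlisted probe sets had 72 h differences from -1.02 to -0.93. That of 266421_at was 171 and 269.9 at 0 h against 106 and 91.0 at 72 h, by way of 149.7 and 243 at 3 h, 167 and 195 at 12 h, 159.5 and 137 at 24 h, and 114 and 142 at 48 h. For 258675_at the signals were 279.6 and 387 at 0 h, 306 and 303 at 3 h, 307 and 314 at 12 h, 263 and 232 at 24 h, 214 and 271 at 48 h, and 221 and 121 at 72 h. In the latter the 2 arrays at 72 h lay far apart, and its difference of -0.94 was -0.54 without 72 h replicate 2.

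The same held for 260637_at, whose signals were 1265 and 1614 at 0 h, 1132 and 2061 at 3 h, 1209 and 1041 at 12 h, 924 and 1069.6 at 24 h, 1221 and 947 at 48 h, and 966 and 570.4 at 72 h. Its 72 h difference of -0.93 was -0.56 without 72 h replicate 2. The probe set 263285_at gave 224 and 268 at 0 h and 136 and 108 at 72 h, with 247 and 244 at 3 h, 222 and 193 at 12 h, 197 and 147 at 24 h, and 172 and 185 at 48 h, and its 72 h difference was also -0.93.

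Between the 2 late times, both 72 h arrays lay below both 48 h arrays in 12 of 20 probe sets, against 19.4% of all probe sets tested. The rule used both times, so nothing is read from this. Against 24 h, both 72 h arrays lay lower in 15 of 20, where 19.5% of all probe sets tested did, and nothing is read from this either, since the rule asked for low values at 72 h. Replicate 2 was the lower array in 15 of 20 members at 72 h and in 52.0% of all probe sets tested. The signal at 0 h was 1.86 to 3.30 times that at 72 h in the 18 members other than AT5G38910 and WRKY53, for which no ratio is given because both 72 h arrays lay below their 40th percentile. The ratio of 3.30 was that of 252365_at, whose 72 h signals, 47.2 and 48.1, lay within the range of the arrays' 40th percentiles, 45.2 to 50.3. In AT3G56730, at 2.20, replicate 1 at 72 h (38.2) lay below that range. The size of these 2 ratios is uncertain.

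Which probe sets belonged to the group depended on the 0 h arrays. With the same rule but without 0 h replicate 1, 9 of the 20 were kept among 23 found, and without 0 h replicate 2, 10 of the 20 among 21. Without single arrays of 48 h or 72 h, 15 to 18 of the 20 were kept. Only 4 were kept without any 1 array of 0, 48 or 72 h, AT1G14240, AT1G66800, SAH7 and 267153_at.

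Beside the 20, the gene lists gave 21 genes with a tested probe set. Of these, 6 fell and 2 rose from 0 h to 72 h, where 3.51% and 2.97% of all probe sets did. The lists were chosen with earlier results of these data known, so the excess over all probe sets is not read as a result. At 48 h, 1.76% of all probe sets fell and 1.98% rose, and BCAT4 (-0.69), APS4 (-2.46) and EXPA18 (-0.83) were the 3 list genes that fell. In glucosinolate synthesis 4 of 35 listed genes were tested, and 3 of these 4 fell from 0 h to 72 h. BCAT4, the aminotransferase that starts methionine chain elongation, was at -3.20 on the L scale. The glucosyltransferase UGT74C1 was at -1.47 and the glutathione transferase GSTU20 at -0.995. These 3 were at -0.50, -0.15 and -0.095 at 24 h, none past the threshold. Their mean signals at 3 h were 1631, 368 and 503, against 727, 180 and 329 at 0 h. In sulfate assimilation 3 of 22 listed genes were tested and 1 fell, APS4, at -3.23. It was already at -1.03 at 24 h (adjusted p = 0.00716 with limma). In the iron deficiency list 5 of 26 genes were tested and 1 fell, S8H, a coumarin synthesis enzyme, at -2.05. The regulator BHLH101 was at -1.13 (adjusted p = 0.0546 with limma). The mean 72 h signals of S8H and BHLH101, 26.3 and 27.6, lay below the 40th percentile of every array, so the size of these differences is uncertain. In the root hair list 1 of 2 fell, EXPA18, at -0.77. From 0 h to 24 h both root hair expansins fell, EXPA7 at -1.12 (adjusted p = 0.0322 with limma) and EXPA18 at -1.22 (adjusted p = 0.00259 with limma), beside the members. Of 7 listed root hair genes these 2 had a named probe set, and their summed signal was 1244 to 1553 at 0 h, 368 to 723 at 3 h, 578 to 629 at 24 h and 724 to 935 at 72 h. The part of root hair cells in the members' values was not tested. Both genes that rose were the sulfur deficiency markers BGLU28 and SDI2.

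Log2 signals of the 2 arrays of a time correlated across probe sets at 0.973 to 0.986, and pairs from different times at 0.927 to 0.989. The root-expressed beta-glucosidase BGLU23 had a signal of 9927 to 14025 over the 12 arrays, and 3 of the 12 lists, among them those of endodermis and of xylem and phloem, had no named probe set, so changes of cell makeup in those tissues could not be followed. As a sign of RNA quality, the actin control had a 3'-end signal 2.78 to 3.27 times that of its 5' end at 0 h, 2.47 to 2.59 times at 24 h and 2.38 to 3.19 times at 72 h. For GAPDH the ratio was 0.895 to 0.953 at 0 h, 0.983 to 1.02 at 24 h and 1.03 to 1.05 at 72 h. At 24 h, the time tested, neither of these 2 controls overlapped with 0 h, with actin lower and GAPDH higher. The ubiquitin control did overlap, with a ratio of 0.840 to 1.19 at 0 h, 0.943 to 1.04 at 24 h and 0.971 to 1.07 at 72 h. The part of RNA quality in the results was not tested.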

How the data were processed

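The 12 arrays hold RNA of whole roots, labelled as biotin cRNA by the one-cycle protocol, per the labels' protocols. The authors deposited 1 intensity value on a linear scale for every probe set of an array, made with MAS5 (no version) per the submitters' processing notes. No scaling target was named there, but trimmed at 2% the array means were 250.02 to 250.03, so the values were used as deposited, as log2(signal + 16), the scale of the selection rule. No detection calls were held, and signals of different probe sets were not set against each other.

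Probe sets were tested if their signal lay above the array's 40th percentile, 45.2 to 50.3, on at least 2 arrays, which left 14682. All 20 members passed, in part because they were high at early times. limma 3.58.1 under R 4.3.3 estimated group means over 12 arrays with 6 residual degrees of freedom, a trended prior variance and Benjamini-Hochberg adjustment at 0.05. With 2 arrays a time, their number limits the precision. In a simulation of 24 h against 0 h over 14682 probe sets, 200 of which were lowered, 17 of 67 were found at 1.5-fold, 40 of 67 at 2-fold and 64 of 66 at 4-fold, beside 15 wrong calls.

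The platform table paired 13513 probe sets with 1 gene, 503 with several and left 8730 unlisted, and 13436 matched the gene table of TAIR10.1, which gave the symbols. Protein and promoter sequences were not used here, and families by description could not be counted because the tables used hold none. Named were all members with 1 gene, with full values for the members lowest at 72 h, lowest or highest at 24 h or nearest the threshold, and for the others too, and of each list up to 4 genes by p at 72 h. The members, lists and tests were chosen with earlier results of these data known. Alternatives were other offsets, quantile normalization, other filters, no trend, the compared groups alone, the replicate number as a block and leaving out each array.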

Additional observations from a re-analysis of the deposited data

How the results depend on the processing

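The count of members that fell from 0 h to 24 h, 4 of 20, was 0 with no filter and 0 with no trend (limma, with 12 and 11 at an unadjusted p under 0.05), 3 or 4 in the other settings that kept all arrays, and 0 to 6 with single arrays left out. Against 3 h and 12 h the count of 1 was 2 with the replicate block and 0 to 3 with single arrays left out. With single arrays left out, the counts of 0 arose without 24 h replicate 2 in both comparisons and without 12 h replicate 1 in the second. The share of all probe sets at an unadjusted p under 0.05 is not given, so nothing is read from the 12 and 11. The difference of 263320_at against 3 h and 12 h, -0.13, turned to 0.14 without 24 h replicate 1 and ran from -0.40 to 0.14 with single arrays left out; each other difference of a member at 24 h stayed below 0 in both comparisons under every alternative run. A stricter filter left 18 members tested. The rule found 13 probe sets with an offset of 64, 10 of them among the 20, and 17 to 23 with single arrays left out.

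Over all probe sets, the 372 that fell by 24 h were 237 with no filter, and the 363 that rose were 227 with only the groups compared; with single arrays left out they were 80 to 481 and 96 to 467, lowest without 24 h replicate 1. Against 3 h and 12 h the 109 lower were 64 with no filter and 12 to 187 with single arrays left out, and the 163 higher were 77 with no filter, 104 with no trend and 6 to 319. From 0 h to 72 h the 515 lower were 180 to 659, and the 436 higher were 278 with only the groups compared and 153 to 515. From 0 h to 48 h the 258 lower were 78 to 346, and the 291 higher were 160 with only the groups compared and 128 to 343. Over 15 pairs of times, the replicate differences correlated at -0.26, for 0 h with 48 h, to 0.22, for 0 h with 3 h. The latter was the 1 pair over 0.1, so no pairing by replicate number was seen across all times. Whether the replicates of 0 h and 3 h were paired was not tested. With the replicate block, 349 fell and 334 rose by 24 h, and 4 members did; AT1G14240 was gained and 246481_s_at lost. The cause of these shifts was not tested.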

Other observations

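The genes next to the 10 named members along the chromosomes were looked up in the TAIR10.1 gene table, 3 on either side. They held 41 probe sets, 24 of them tested. From 0 h to 72 h 1 of the 24 fell and 1 rose, where 3.51% and 2.97% of all probe sets did, so the neighbours lay near the background. The one that fell was YLS5, the direct neighbour of AT2G38870, at -0.79 ± 0.16 on the log2 scale (SE, adjusted p = 0.00673 with limma). AT1G66760, a gene of the MATE efflux family 3 genes from AT1G66800, was the one that rose, by 1.78 ± 0.28 (SE, adjusted p = 0.00142 with limma), opposite to AT1G66800.

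In 14 of the 20 members the same replicate number was the higher one at 0 h and at 3 h, replicate 2 in 10 and replicate 1 in 4, against 54.6% of all probe sets tested. In AT5G38910 the signal of replicate 1 was 301 at 0 h and 254 at 3 h, and that of replicate 2 was 44.4 and 45.0.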
